A study of Mus musculus with 27 samples.

Results

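The transcripts described here are 36 genes of cholesterol synthesis, uptake and efflux, measured by RNA-seq in *MlxKO* mice. They were chosen by gene symbol, and all 36 were found among the 36333 genes measured. Synthesis genes comprised 20 enzymes and 4 regulators of the sterol-sensing SREBP pathway, and transport genes comprised 12 genes of uptake, intracellular transport, esterification and efflux. Liver, omental adipose tissue and skeletal muscle were each sampled in 4 young mice (5 months of age) and 5 old mice (20 months), 27 samples in all. Every mouse, at both ages, carried LoxP sites in the *Mlx* locus (Flox/Flox) and the Gt(ROSA)26Sortm1(cre/ERT2) allele, in which the ROSA26 locus drives a tamoxifen-activated CreER in all tissues. Excision was induced at weaning, in mice that weighed at least 15 g, with 5 daily injections of tamoxifen at 75 mg/kg. WT mice were not analysed here, so each comparison is of age or tissue within the *MlxKO* genotype. According to the mouse numbers in the sample names, the same 4 mice gave all 3 tissues at 5 months. These samples are named by tissue and mouse number, X5L4299, X5L5001, X5L5238 and X5L5239 in liver, with F in place of L in adipose tissue and S in skeletal muscle. The codes of the samples at 20 months hold X18, whereas their labels give 20 months, and the labels were used. The samples at 20 months share no number between tissues and were treated as different mice. They were mice 16, 17, 18, 19 and 74 for liver, 36 to 40 for adipose tissue and 56 to 60 for skeletal muscle, and values of single samples are given below in these orders. The paper's table of *Mlx* excision lists numbers with these endings, in the same tissues, at 18 months of age.

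Samples held 14384695 to 25673919 reads on genes, and 3 reads corresponded to a deposited value of 0.0703 to 0.242. Values are read counts scaled to the library total and then by a factor for each sample. Tissue labels were compared with defining markers. The summed level of 8 hepatocyte markers was 18043 to 42340.4 in liver and 0.782 to 87.5 in skeletal muscle, that of 8 adipocyte markers was 9164 to 17306 in adipose tissue, and that of 8 muscle fibre markers was 142850.0 to 185772 in skeletal muscle. *Mlx* itself was read in liver at 18.8 to 32.4, in omental adipose tissue at 8.19 to 13.9 and in muscle at 7.04 to 11.6. These are sums over the whole gene with no WT level beside them, and exons outside the excised part still give reads, so they check no label. In the paper's qRT-PCR of young and old mice, more *Mlx* transcript relative to WT was left in skeletal muscle than in liver or adipose tissue. The part of this in differences between tissues was not tested.

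Cholesterol is built from acetyl-CoA through mevalonate, prenyl diphosphates, squalene and lanosterol. Its synthesis is governed by SREBP-2, the product of *Srebf2*, which Scap escorts out of the endoplasmic reticulum when membrane sterol is low and which Insig proteins hold back when sterol is plentiful. Surplus cholesterol activates liver X receptors such as Lxr-alpha, encoded by *Nr1h3*, which raise the efflux pumps and the ubiquitin ligase Mylip, which removes the LDL receptor. Cholesterol taken up with lipoproteins is freed from its esters by lysosomal acid lipase (*Lipa*), leaves the lysosome through Npc2 and Npc1, and is stored again as ester by the Soat enzymes. The liver makes much of the body's cholesterol, takes up lipoproteins and exports sterol into bile, whereas adipose tissue mainly stores it.

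In liver, 12 of the 20 synthesis enzymes and *Insig1* were higher at 20 months, and the 2 Insig genes moved in opposite directions. Of the 24 synthesis genes, all tested, 13 rose and 1 (*Insig2*) fell, whereas 19.8% of the 12654 genes tested in liver passed the same threshold in either direction (10% higher and 9.79% lower). The changes were tested by limma on log2(value + 1), with Benjamini-Hochberg adjustment over all genes tested and a threshold of 0.05, and each log2 change below is on that scale and is given with its SE. Changes of genes read at low values are understated on this scale. The median log2 change was 0.60 over the 24 synthesis genes and 0.0011 over all genes tested. The ages did not overlap for 9 of the risers and for *Insig2*, where 19.1% of all genes tested did not overlap (8.46% higher and 10.7% lower).

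**Figure D1:**
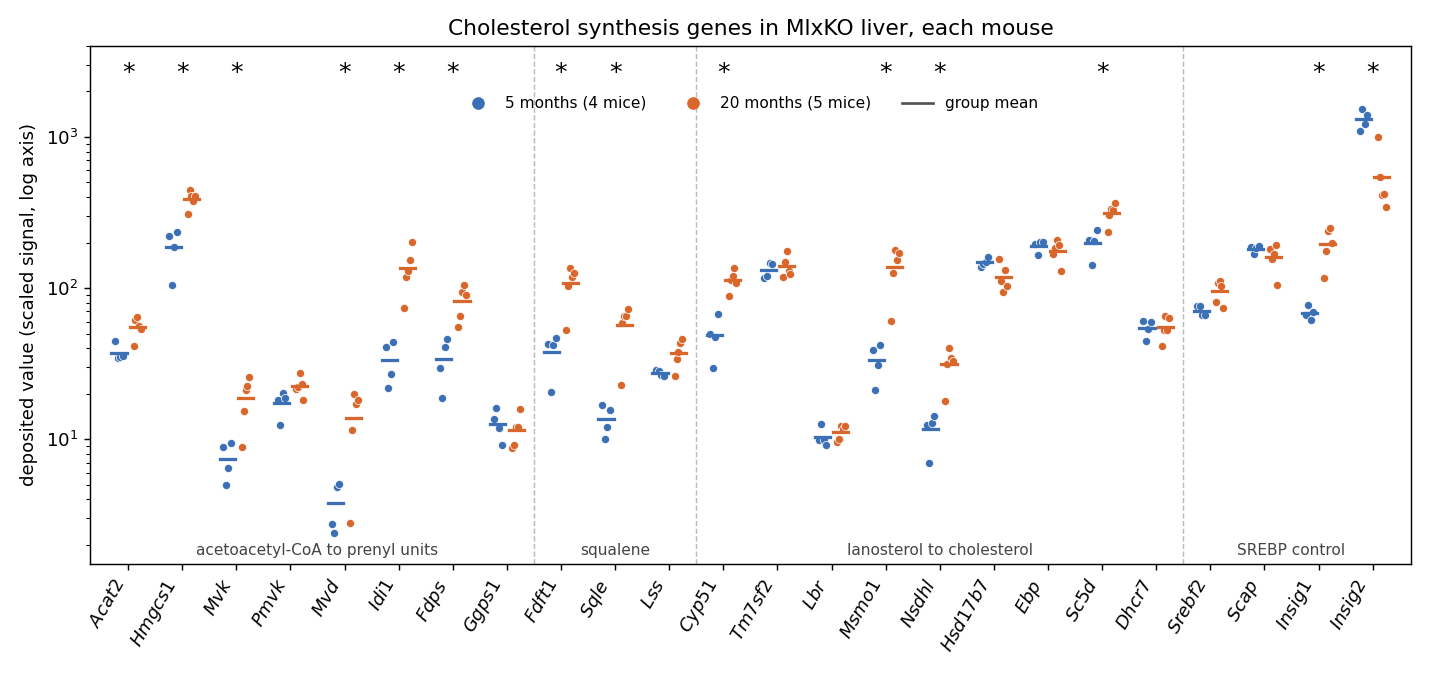
Deposited values (scaled signal, log axis) of the 24 synthesis genes in liver, ordered along the pathway and with the SREBP regulators at the right. Each point is a mouse (4 at 5 months, 5 at 20 months), lines are group means, and stars mark the 14 genes past the threshold. Of the 13 risers, 12 are enzymes and 1 is Insig1, and in each of them the lowest 20-month point is mouse 16.

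*Insig1*, an SREBP-2 target whose protein holds Scap back, was read at 66.4, 77.2, 61.2 and 69.3 at 5 months and 117, 175, 237, 249 and 199 at 20 months. Every mouse at 20 months lay above every mouse at 5 months, and the mean rose 2.85-fold (log2 change 1.45 ± 0.20, adjusted p = 0.00557, limma). *Insig2*, its paralog, which in liver is the more abundant of the pair, was read at 1096, 1521, 1222 and 1394 at 5 months and 995, 543, 416, 418 and 344 at 20 months. Here every older mouse lay below every young mouse, mouse 16 came nearest to the young group, and the mean was 2.41-fold lower (log2 change -1.36 ± 0.27, adjusted p = 0.0116). The ratio of *Insig2* to *Insig1* was 16.5, 19.7, 19.9 and 20.1 at 5 months and 8.48, 3.11, 1.75, 1.68 and 1.73 at 20 months. The longest annotated transcripts of the 2 genes have the same length (2697 bases), so this ratio is also a ratio per length. *Srebf2* (70.8 ± 5.48 (SD, n = 4) and 95.3 ± 17.1 (SD, n = 5); log2 change 0.41 ± 0.14, adjusted p = 0.0571) and *Scap* (182 ± 9.20 (SD, n = 4) and 161 ± 33.9 (SD, n = 5); log2 change -0.21 ± 0.16, adjusted p = 0.354) did not pass the threshold.

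The sequences before the starts of *Insig1* and *Insig2* are shown because this pair changed in opposite directions. They are the 250 bases before the annotated start, from RefSeq in GRCm38.p6, written 5′ to 3′ on the strand of the gene. Capitals mark the NF-Y box CCAAT (or ATTGG on the other strand) and the E-box CACGTG. NF-Y is a partner of SREBP-2 on sterol-regulated promoters, and the E-box is the core letters bound by Myc and Mlx family dimers. *Insig1* lies at chr5:28071162-28071411, plus strand, and the first of 3 annotated starts of *Insig2* at chr1:121332590-121332839, minus strand.
Insig1: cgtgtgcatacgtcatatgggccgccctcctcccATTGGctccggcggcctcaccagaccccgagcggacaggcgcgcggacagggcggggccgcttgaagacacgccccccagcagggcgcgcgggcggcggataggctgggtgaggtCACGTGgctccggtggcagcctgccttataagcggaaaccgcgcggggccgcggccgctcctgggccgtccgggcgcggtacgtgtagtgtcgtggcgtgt
Insig2: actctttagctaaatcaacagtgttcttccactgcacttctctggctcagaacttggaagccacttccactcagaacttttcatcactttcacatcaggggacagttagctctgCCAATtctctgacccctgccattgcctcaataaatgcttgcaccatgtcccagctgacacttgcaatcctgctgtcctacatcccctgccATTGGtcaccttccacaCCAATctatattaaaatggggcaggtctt
The *Insig1* window held an E-box 101 bases before the start and an NF-Y box 216 bases before it. The *Insig2* window held 3 NF-Y boxes, at 136, 46 and 29 bases before the start, and no E-box, and the windows of the other 2 starts held neither.

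**Figure D2:**
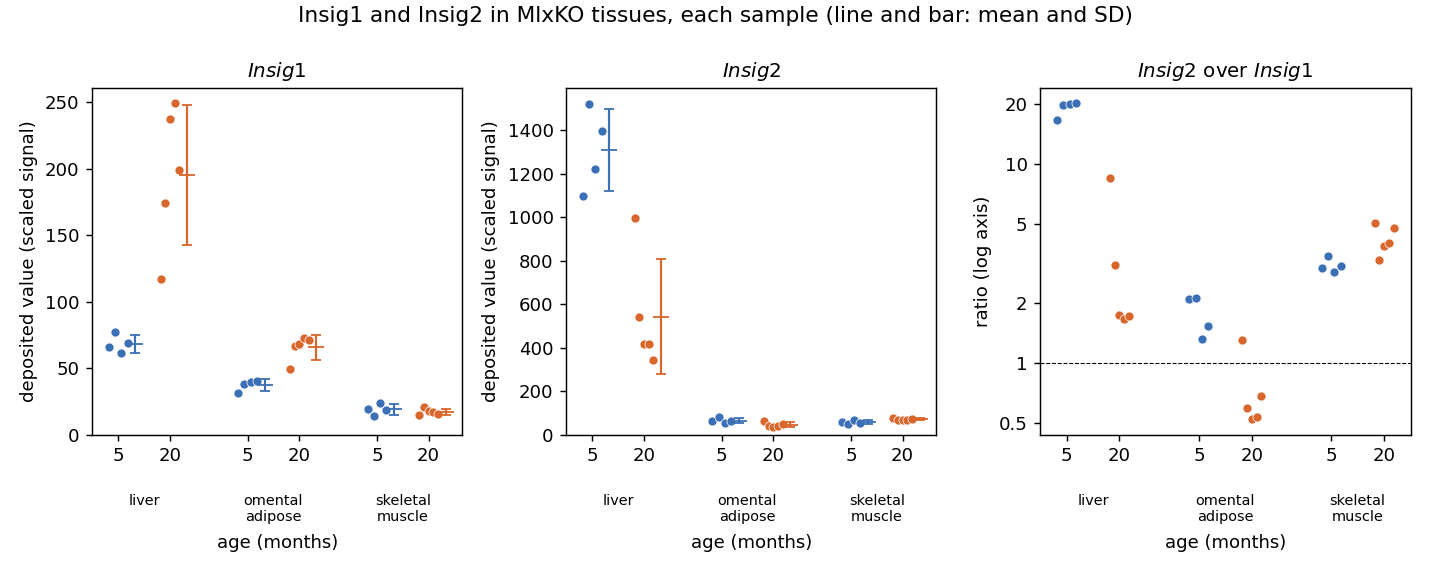
Deposited values (scaled signal) of Insig1 and Insig2 and the ratio of Insig2 to Insig1 (log axis) in each sample, by tissue and age (blue: 5 months, orange: 20 months), with mean and SD beside the points of the first 2 panels. In liver the ratio is 16.5 to 20.1 at 5 months and 1.68 to 8.48 at 20 months, in adipose tissue it is at or below 1.32 at 20 months, and in skeletal muscle it lies between 2.87 and 5.06.

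Among the 8 enzymes that lead from acetoacetyl-CoA to prenyl diphosphates, 6 rose in liver. *Acat2*, the cytosolic thiolase that makes acetoacetyl-CoA, was read at 44.4, 34.4, 35.1 and 35.5 at 5 months and 41.3, 61.9, 64.4, 56.2 and 53.2 at 20 months. *Hmgcs1*, HMG-CoA synthase, was read at 219.6, 105, 186 and 236 at 5 months and 308, 446, 406, 376 and 406 at 20 months. *Hmgcs1* did not overlap between the ages and rose 2.08-fold (log2 change 1.11 ± 0.22, adjusted p = 0.0113), whereas for *Acat2* mouse 16 fell within the young range and the mean rose 1.48-fold (log2 change 0.55 ± 0.14, adjusted p = 0.0235). *Mvk*, mevalonate kinase, was read at 8.91, 4.95, 6.49 and 9.36 at 5 months and 8.80, 15.3, 21, 22.5 and 25.7 at 20 months. *Mvd*, mevalonate diphosphate decarboxylase, was read at 2.74, 2.40, 4.85 and 5.04 at 5 months and 2.80, 11.4, 19.9, 17.04 and 18.2 at 20 months. In both genes mouse 16 lay within the young range and the other 4 older mice lay above it, with a mean 2.51-fold higher for *Mvk* (log2 change 1.17 ± 0.28, adjusted p = 0.0198) and 3.69-fold higher for *Mvd* (log2 change 1.47 ± 0.45, adjusted p = 0.0419). *Idi1*, which isomerises isopentenyl diphosphate, was read at 40.7, 21.7, 26.8 and 43.98 at 5 months and 73.4, 119, 129, 154 and 201 at 20 months. *Fdps*, farnesyl diphosphate synthase, was read at 29.5, 18.8, 40.99 and 45.98 at 5 months and 54.8, 65.1, 94.02, 105 and 90.6 at 20 months. Neither gene overlapped between the ages, and *Idi1* rose 4.06-fold (log2 change 1.97 ± 0.28, adjusted p = 0.00589) and *Fdps* 2.42-fold (log2 change 1.29 ± 0.26, adjusted p = 0.0119). The other 2, *Pmvk* (phosphomevalonate kinase; log2 change 0.37 ± 0.16, adjusted p = 0.115) and *Ggps1* (geranylgeranyl diphosphate synthase, on a side branch; log2 change -0.12 ± 0.19, adjusted p = 0.669), did not pass.

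*Idi1* and *Msmo1* are shown as the synthesis enzymes with the smallest adjusted p in liver among those with a promoter entry, and a stretch of *Hmgcs1* because it holds the only sterol regulatory element core (TCACNCCAC) found in the windows of the synthesis genes, and was chosen after that match was seen. *Idi1* lies at chr13:8885356-8885605, plus strand, *Msmo1* at chr8:64733579-64733828, minus strand and the *Hmgcs1* stretch at chr13:119690184-119690252, plus strand, where capitals mark that core, 137 bases before the start.
Idi1: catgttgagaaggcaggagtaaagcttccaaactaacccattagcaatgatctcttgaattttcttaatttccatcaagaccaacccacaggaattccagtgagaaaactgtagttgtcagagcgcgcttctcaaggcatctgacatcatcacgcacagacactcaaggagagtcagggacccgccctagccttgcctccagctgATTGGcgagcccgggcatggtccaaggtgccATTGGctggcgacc
Msmo1: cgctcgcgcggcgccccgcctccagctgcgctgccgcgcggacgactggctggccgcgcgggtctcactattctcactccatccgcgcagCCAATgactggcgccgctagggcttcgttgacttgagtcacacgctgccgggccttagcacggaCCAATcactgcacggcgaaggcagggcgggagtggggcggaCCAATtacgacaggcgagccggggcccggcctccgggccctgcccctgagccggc
Hmgcs1: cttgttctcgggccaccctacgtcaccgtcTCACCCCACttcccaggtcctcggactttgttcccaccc
*Idi1* held NF-Y boxes 45 and 14 bases before its start and *Msmo1* held 3, at 160, 96 and 55 bases.

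Windows of 300 bases, from 250 before to 50 after a start, could be read for 21 of the 24 synthesis and 8 of the 12 transport genes. An NF-Y box on either strand was found in 19 of the 21 synthesis genes and 6 of the 8 transport genes, and in 41.1% of all 27025 genes with a window (42.8% of the 9740 tested in liver). The Sp1 box GGGCGG was found in 19 of 21 and 5 of 8, and in 38.2% of all genes and 66.6% of those tested in liver. The E-box was found in 5 of the 21 synthesis genes (*Dhcr7*, *Hsd17b7*, *Insig1*, *Sc5d* and *Scap*) and in 1 of the 8 transport genes (*Abca1*), and in 8.09% of all genes and 11.9% of those tested in liver. Of these 5 synthesis genes, *Insig1* and *Sc5d* rose in liver, where *Dhcr7*, *Hsd17b7* and *Scap* did not pass, and *Insig1* and *Dhcr7* rose in adipose tissue. *Hmgcs1*, *Idi1*, *Cyp51*, *Msmo1*, *Nsdhl*, *Mvk*, *Mvd* and *Acat2* rose in liver with no E-box in their windows. The sterol regulatory element core was found in 1.44% of all genes and in *Hmgcs1* among the members. No window of a member matched the exact letters searched for the carbohydrate response element or the liver X receptor element. Those letters were found in 0.0296% and 0.0148% of all genes. For the liver X receptor element only a perfect repeat was searched, which was found in 0% of the genes tested in liver. Imperfect repeats were not searched, so whether a member, *Abca1* included, holds such an element cannot be told from this search. Both strands were searched, overlapping matches were allowed, and the matches are descriptions of these letters.

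Transcripts of squalene formation and oxidation rose in liver, in 2 of 3 genes. *Fdft1*, squalene synthase, was read at 42.6, 20.5, 41.8 and 46.9 at 5 months and 52.9, 103, 135, 118 and 126 at 20 months. *Sqle*, squalene epoxidase, a rate-controlling step, was read at 16.7, 9.97, 12.05 and 15.7 at 5 months and 22.7, 58.3, 65.1, 65.2 and 72.2 at 20 months. Neither overlapped between the ages, and in both the 4 older mice other than mouse 16 lay well above the rest, with a mean 2.82-fold higher for *Fdft1* (log2 change 1.47 ± 0.30, adjusted p = 0.0119) and 4.17-fold higher for *Sqle* (log2 change 1.91 ± 0.30, adjusted p = 0.00775). *Lss*, lanosterol synthase, at 25.99 to 28.5 at 5 months and 26.4 to 45.9 at 20 months, did not pass (log2 change 0.41 ± 0.15, adjusted p = 0.0724).

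Of the 9 enzymes that convert lanosterol to cholesterol, 4 rose. *Cyp51*, lanosterol demethylase, was read at 49.96, 29.5, 47.5 and 67.3 at 5 months and 88.7, 113, 120.0, 135 and 108 at 20 months. *Msmo1*, the sterol methyl oxidase, was read at 38.6, 21.2, 30.9 and 41.9 at 5 months and 60.4, 125, 178, 153 and 170.1 at 20 months. *Nsdhl*, which follows it in removing the methyl groups, was read at 12.3, 6.98, 12.8 and 14.2 at 5 months and 17.96, 31.3, 40.1, 34.5 and 32.9 at 20 months. None of the 3 overlapped between the ages, and their means rose 2.33-fold (log2 change 1.25 ± 0.20, adjusted p = 0.00785), 4.14-fold (log2 change 1.97 ± 0.30, adjusted p = 0.00746) and 2.71-fold (log2 change 1.36 ± 0.24, adjusted p = 0.00866). *Sc5d*, the sterol desaturase late in the pathway, was read at 207, 141, 206 and 243 at 5 months and 234, 303, 331, 329 and 363 at 20 months. Mouse 16 fell within the young range for *Sc5d*, and the mean rose 1.57-fold (log2 change 0.66 ± 0.17, adjusted p = 0.0253). The other 5 did not pass. *Tm7sf2* and *Lbr* (sterol reductases), *Ebp* (sterol isomerase) and *Dhcr7*, which catalyses the last reduction, had log2 changes of 0.073, 0.093, -0.13 and 0.0050, and *Hsd17b7*, which works beside *Nsdhl*, had -0.33 (adjusted p 0.114 to 0.984). *Dhcr7* was read at 44.9 to 60.3 at 5 months and 41.2 to 64.8 at 20 months and *Ebp* at 165 to 203 and 129 to 207. Thus *Msmo1* and *Nsdhl* rose while *Hsd17b7*, in the same demethylating step, was estimated lower without passing. *Fdft1* and *Sqle* rose, and the next enzyme, *Lss*, was estimated higher without passing. Differences between these genes were not tested.

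The summed level of the 20 enzymes was 1293, 960.0, 1269.7 and 1435 at 5 months and 1516, 2023, 2234, 2162 and 2178 at 20 months. Mouse 16 was the lowest of the 5 older mice in all 13 synthesis risers, and mouse X5L5001 was the lowest of the 4 young mice in 12 of them. The summed level of 6 genes that rise in fasted liver (*Pdk4*, *Cpt1a*, *Acot1*, *Cyp4a14*, *Fgf21* and *Pck1*) was 28019.6, 35314, 27172 and 27770.5 at 5 months and 25653, 15878, 11160.4, 16033 and 4146 at 20 months, and was thus highest in mouse X5L5001 and, among the older mice, in mouse 16. *Pck1* and *Cpt1a* of this list fell at 20 months. For 7 lipogenic genes that rise in fed liver the sum was 3156, 1005, 2677 and 2316 at 5 months and 1664, 4348, 2258, 1180.2 and 2138 at 20 months, lowest in mouse X5L5001 among the young mice and in mouse 19, followed by mouse 16, among the older. That of 9 clock-controlled genes was 219.6 to 281 and 263 to 566, and 2 of them, *Dbp* and *Nr1d1*, rose. This sum and those of the hepatocyte and macrophage markers were highest in mouse X5L5001 among the young mice and lowest in mouse 16 among the older. Of 8 hepatocyte markers, 5 fell (sum 24973 to 42340.4 and 18043 to 23430.0), and 4 of 10 macrophage markers rose (sum 307 to 472 and 336 to 1240.4), as did 6 of 7 markers of lipid-associated macrophages and all 5 B cell markers. The part of these in the synthesis changes was not tested, and in whole tissue fewer cells of a type and less RNA per cell cannot be told apart.

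**Figure D3:**
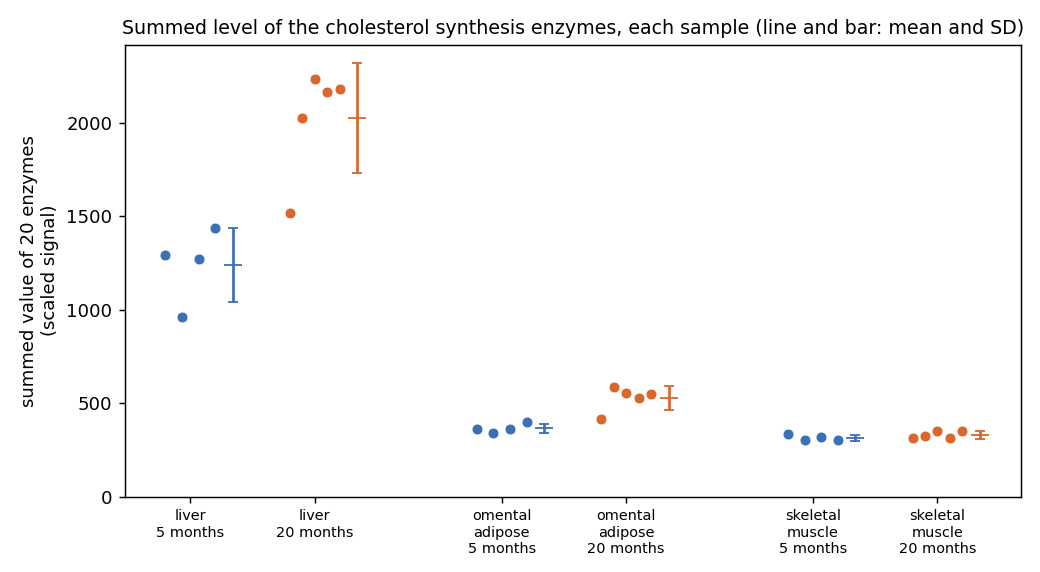
Summed deposited value (scaled signal) of the 20 synthesis enzymes in each sample, by tissue and age, with mean and SD beside the points. On the deposited scale, liver ranges from 960.0 to 1435 at 5 months and from 1516 to 2234 at 20 months. The highest adipose or skeletal muscle sample is at 585, and the gap between tissues depends on the factor for each sample.

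Of the 14 synthesis calls in liver, 10 (*Hmgcs1*, *Sqle*, *Idi1*, *Fdps*, *Fdft1*, *Cyp51*, *Msmo1*, *Nsdhl*, *Insig1* and *Insig2*) were kept when any of the 9 samples was left out. *Mvd* lost its call in 8 of the 9 fits, *Acat2* in 6, *Sc5d* in 5 and *Mvk* in 2 (without mouse X5L5001 or 18), and the count of calls was 10 without mouse X5L5001 and 17 without mouse 16. Exact two-sided permutation tests of the single genes gave p from 0.00794, the smallest that 4 against 5 samples allow, to 0.0476 for these 14.

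Transport genes in liver changed in both directions. Of the 12, 3 rose and 2 fell, beside 10% and 9.79% of all genes tested, and the median log2 change was 0.12, beside 0.0011 over all genes. *Abca1*, the pump that passes cholesterol to lipid-poor apolipoproteins, was read at 245, 204, 266 and 267 at 5 months and 138, 156, 132, 164 and 171 at 20 months. All older mice lay below all young mice, mouse 16 among them, and the mean was 1.62-fold lower (log2 change -0.69 ± 0.12, adjusted p = 0.00866). The other efflux genes did not pass. *Abcg5* and *Abcg8*, the subunits of the pump that sends sterol into bile, were read at 48.3 to 66.7 and 109 to 121 at 5 months and 43.1 to 71.1 and 86.2 to 145 at 20 months, *Abcg1* at 5.35 to 8.59 and 6.61 to 12.3, and *Nr1h3* at 104 to 119.7 and 124 to 145 (log2 change 0.22 ± 0.091, adjusted p = 0.109). *Mylip* (log2 change -0.37 ± 0.29, adjusted p = 0.373) was at 46.99 in mouse X5L5001 and between 12.97 and 21.4 in the other 8.

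Transcripts of the pair of proteins that release cholesterol from the lysosome changed in opposite directions in liver. *Npc1*, the membrane protein, was read at 297, 311, 292 and 277 at 5 months and 256, 159, 169, 200.1 and 124 at 20 months. *Npc2*, its soluble partner, was read at 80.1, 68.3, 68.9 and 71.7 at 5 months and 91.8, 125, 131, 104 and 129 at 20 months. Neither overlapped between the ages, and *Npc1* was 1.62-fold lower (log2 change -0.73 ± 0.18, adjusted p = 0.0198) while *Npc2* was 1.61-fold higher (log2 change 0.67 ± 0.12, adjusted p = 0.00977). The *Npc1* call was lost without mouse X5L5001 or 18 and once a trend with length and GC of transcripts had been taken out. *Lipa*, which frees cholesterol from its esters, was at 318 to 422 and 295 to 473 (log2 change 0.013 ± 0.15, adjusted p = 0.962).

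*Stard4*, a soluble sterol carrier that is also an SREBP-2 target, was read at 40.6, 28.3, 37.6 and 41.6 at 5 months and 42.3, 79.2, 77.8, 96.6 and 91.2 at 20 months in liver. *Soat2*, the ester-forming enzyme of hepatocytes, was read at 33.7, 20.6, 30.5 and 31.3 at 5 months and 39.6, 43.3, 44.5, 47.6 and 35.1 at 20 months. Neither overlapped, although mouse 16 lay just above the young range for *Stard4*, and the means rose 2.09-fold (log2 change 1.01 ± 0.22, adjusted p = 0.0151) and 1.45-fold (log2 change 0.54 ± 0.15, adjusted p = 0.0315). The *Soat2* call was lost in 5 of the 9 fits that left out a sample. *Soat1*, its ubiquitous paralog, was at 2.71 to 6.69 and 2.24 to 11.1 and did not pass (log2 change 0.53 ± 0.35, adjusted p = 0.289).

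*Abca1* and *Mylip* are shown as the transport genes with the smallest adjusted p in liver and in skeletal muscle among those with a window. *Abca1* lies at chr4:53159896-53160145, minus strand and *Mylip* at chr13:45389492-45389741, plus strand, and capitals again mark NF-Y boxes and E-boxes.
Abca1: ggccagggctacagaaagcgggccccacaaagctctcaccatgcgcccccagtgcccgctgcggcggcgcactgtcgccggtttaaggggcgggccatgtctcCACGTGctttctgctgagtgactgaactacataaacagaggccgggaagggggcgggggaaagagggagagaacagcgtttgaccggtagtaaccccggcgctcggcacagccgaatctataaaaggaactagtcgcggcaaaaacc
Mylip: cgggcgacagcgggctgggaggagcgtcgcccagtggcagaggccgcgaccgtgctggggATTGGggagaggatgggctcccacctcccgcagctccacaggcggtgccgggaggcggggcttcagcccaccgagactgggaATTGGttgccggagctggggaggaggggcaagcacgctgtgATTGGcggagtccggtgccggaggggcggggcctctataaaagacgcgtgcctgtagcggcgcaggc
*Abca1* held an E-box 147 bases before the start and no NF-Y box, and *Mylip* held 3 NF-Y boxes, at 190, 108 and 67 bases before the start, and no E-box.

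**Figure D4:**
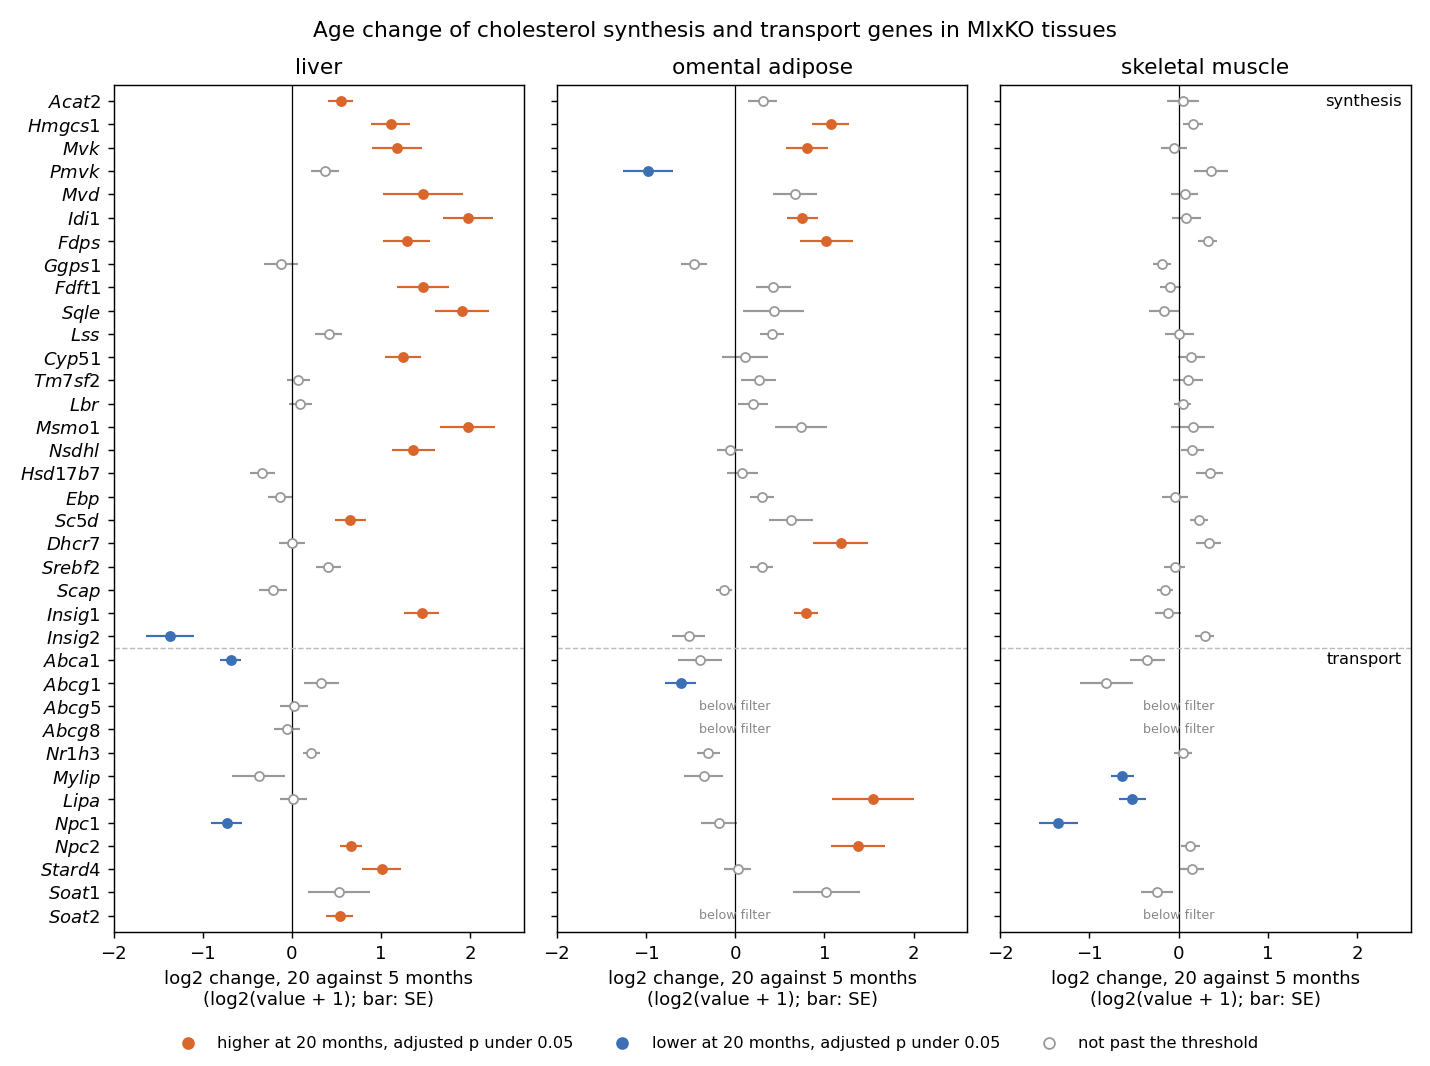
Log2 change from 5 to 20 months (on log2(value + 1), with SE) of the 36 genes in liver, omental adipose tissue and skeletal muscle. Filled points passed the threshold (orange: higher, blue: lower), and genes marked below filter were not tested. In liver 16 genes were higher and 3 lower, in adipose tissue 8 and 2, and in skeletal muscle 0 and 3.

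In adipose tissue, 5 of the 7 synthesis genes that changed encode enzymes between acetoacetyl-CoA and prenyl diphosphates. Of the 24, 6 rose and 1 fell, where 19.1% of the 14005 genes tested passed (9.75% higher and 9.35% lower). The median log2 change was 0.36 over the 24 genes and 0.0072 over all genes tested. Without overlap between the ages, 4 synthesis genes were higher and 2 (*Pmvk* and *Ggps1*) lower, beside 8.3% and 9.1% of all genes. *Hmgcs1* was read at 109, 63.7, 82.7 and 104 at 5 months and 148, 237, 152, 179 and 232 at 20 months. *Insig1* was read at 31.2, 38.3, 39.8 and 40.7 at 5 months and 49.4, 67.1, 68.4, 72.7 and 71.2 at 20 months. Neither overlapped between the ages, and *Hmgcs1* rose 2.11-fold (log2 change 1.07 ± 0.21, adjusted p = 0.0159) and *Insig1* 1.75-fold (log2 change 0.79 ± 0.14, adjusted p = 0.012). These 2 are the synthesis calls in adipose tissue that were kept whichever sample was left out.

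*Idi1* was read at 8.65, 7.20, 10.8 and 12.9 at 5 months and 13.4, 15.6, 20.6, 18.4 and 17.6 at 20 months in adipose tissue. *Fdps* was read at 6.48, 4.88, 12.04 and 10.9 at 5 months and 10.52, 18.9, 26.5, 19.9 and 15.1 at 20 months. *Mvk* was read at 4.85, 3.47, 8.93 and 8.21 at 5 months and 8.93, 13.3, 11.99, 11.02 and 11.02 at 20 months. *Idi1* and *Mvk* did not overlap, though mouse 36 lay barely above mouse X5F5238 for *Mvk*, and *Fdps* overlapped through mouse 36. The mean of *Idi1* rose 1.73-fold (log2 change 0.75 ± 0.17, adjusted p = 0.0258), that of *Fdps* 2.12-fold (log2 change 1.02 ± 0.30, adjusted p = 0.0415) and that of *Mvk* 1.77-fold (log2 change 0.80 ± 0.24, adjusted p = 0.0436). *Dhcr7* was read at 3.32, 3.14, 6.20 and 3.14 at 5 months and 5.54, 9.30, 16.95, 14.3 and 7.35 at 20 months. The older mice overlapped the young through mouse 36, and the mean rose 2.71-fold (log2 change 1.18 ± 0.31, adjusted p = 0.0334). *Pmvk* was the synthesis gene that fell, with 21.2, 54.7, 16.7 and 23.5 at 5 months and 12.4, 12.7, 15.3, 12.4 and 11.3 at 20 months. Every older sample lay below every young sample, mouse X5F5001 was far above the others, and the mean was 2.27-fold lower (log2 change -0.98 ± 0.29, adjusted p = 0.0428). These 5 calls were lost in 5 or 6 of the 9 fits that left out a sample, and the count of synthesis calls ranged from 2 (without mouse X5F4299) to 12 (without mouse 36).

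The other 17 synthesis genes did not pass in adipose tissue, with log2 changes from -0.52 to 0.74. Among them were *Sqle*, at 7.27 to 11.4 and 7.26 to 25.4, and *Msmo1*, at 9.60 to 14.2 and 11.8 to 37.9, whose highest values were in mouse 38. *Ggps1* (log2 change -0.46 ± 0.14, adjusted p = 0.0502), *Lss* (log2 change 0.41 ± 0.13, adjusted p = 0.0548) and *Insig2* (log2 change -0.52 ± 0.19, adjusted p = 0.0718) were nearest to the threshold among those named here, and *Ggps1* did not overlap between the ages. The ratio of *Insig2* to *Insig1* was 2.10, 2.12, 1.32 and 1.54 at 5 months and 1.32, 0.598, 0.526, 0.539 and 0.684 at 20 months. The summed level of the 20 enzymes was 367 ± 23.97 (SD, n = 4) in the young mice and 527 ± 64.6 (SD, n = 5) in the old. Mouse 36 was the lowest of the older mice in all 6 risers.

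Of the transport genes in adipose tissue, *Npc2* and *Lipa*, which act in lysosomal release, rose, and *Abcg1*, an efflux pump, fell. Of 12 genes, 9 were tested, 2 rose and 1 fell, beside 9.75% and 9.35% of all genes tested, and their median log2 change was -0.18. *Npc2* was read at 189, 115, 302 and 322 at 5 months and 425, 732, 627, 535 and 518 at 20 months. *Lipa* was read at 126, 89.96, 183 and 111 at 5 months and 145, 454, 771, 543 and 221 at 20 months. *Npc2* did not overlap and rose 2.45-fold (log2 change 1.38 ± 0.30, adjusted p = 0.0222), and *Lipa* overlapped through mouse 36 and rose 3.34-fold (log2 change 1.54 ± 0.46, adjusted p = 0.0445). *Abcg1*, which passes cholesterol to HDL, was read at 165, 193, 130.4 and 107 at 5 months and 113, 92.1, 92.5, 84.6 and 92.9 at 20 months. Mouse X5F5239 overlapped the older mice, and the mean was 1.57-fold lower (log2 change -0.61 ± 0.17, adjusted p = 0.0387). *Soat1*, at 23.4 to 34.2 and 26.2 to 121, did not pass (log2 change 1.02 ± 0.38, adjusted p = 0.0792), nor did *Abca1* (log2 change -0.40 ± 0.25, adjusted p = 0.241), *Npc1* (log2 change -0.18 ± 0.20, adjusted p = 0.515), *Nr1h3* (log2 change -0.30 ± 0.13, adjusted p = 0.106), *Mylip* or *Stard4*. All 3 calls were lost without mouse X5F4299, and the exact permutation p of *Lipa* was 0.0635.

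Markers of macrophages and other cells were also read in adipose tissue. The summed level of 10 macrophage markers in adipose tissue was 1405, 1096, 2282 and 1377 at 5 months and 1528, 4548, 6739, 3591 and 2116 at 20 months, and was thus highest in mouse 38 and lowest among the older mice in mouse 36, as were *Lipa* and *Soat1*. *Npc2* was highest in mouse 37 and lowest among the older mice in mouse 36, whereas *Abcg1* was highest among the older mice in mouse 36. None of the 10 macrophage markers was at 0 in all samples, 2 rose (*C1qa* and *Adgre1*) and *Cd163* fell. The sum of 7 markers of lipid-associated macrophages was 3675 to 5289 and 3351 to 7910.4, and 4 of them rose (*Spp1*, *Cd9*, *Itgax* and *Trem2*), as did all 5 B cell markers (sum 5.39 to 21.7 and 18.1 to 189). Mouse 36 was also the lowest of the older mice in all 6 synthesis risers, in 3 of which mouse 38 was highest. Mouse X5F5001 was the lowest young mouse in 5 of the 6. The sum of the 7 lipogenic genes was 7381 in mouse X5F5001 and 22993 to 26629 in the other young mice. Among the older mice it was highest in mouse 36 (16454). The part of macrophages and other cells, or of feeding, in the levels of *Lipa*, *Npc2*, *Soat1* and the synthesis risers was not tested. The sum of 6 endothelial markers was 628 to 1353 and 387 to 723, and that of 8 adipocyte markers 9164 to 17306 and 10273 to 14739.6.

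In skeletal muscle, 0 of 24 synthesis genes passed the limma test, where 19.3% of the 12720 genes tested passed. At an unadjusted p under 0.05 there were 5 (*Fdps*, *Dhcr7*, *Sc5d*, *Hsd17b7* and *Insig2*), and edgeR and DESeq2 on the recovered reads called 1 and 2. The log2 changes ran from -0.19 to 0.37 with a median of 0.080, beside 0.017 over all genes. *Hmgcs1* was at 30.96 to 37.3 and 33.7 to 45.4, *Insig1* at 14.4 to 24.3 and 15.3 to 20.7 and *Insig2* at 50.1 to 69.6 and 68.1 to 77.1 (log2 change 0.29 ± 0.10, adjusted p = 0.0626). *Sqle* was at 0.976 to 2.02 and 0.864 to 1.37, which rests on 13 to 25 reads a sample.

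Of 9 transport genes tested in skeletal muscle, 3 fell and 0 rose (10.1% of all genes fell and 9.13% rose). *Npc1* was read at 555, 671, 392 and 341 at 5 months and 206, 244, 204, 170.2 and 124 at 20 months. *Mylip* was read at 46.1, 35.5, 36.7 and 33.9 at 5 months and 23.99, 23.9, 21.3, 30.2 and 21.9 at 20 months. *Lipa* was read at 12.8, 19.51, 13.5 and 12.1 at 5 months and 8.15, 9.71, 10.9, 10.7 and 9.05 at 20 months. None of the 3 overlapped between the ages (8.64% of all genes lay lower without overlap and 8.63% higher), and the means were 2.58-fold lower for *Npc1* (log2 change -1.35 ± 0.22, adjusted p = 0.00375), 1.57-fold lower for *Mylip* (log2 change -0.63 ± 0.13, adjusted p = 0.00863) and 1.49-fold lower for *Lipa* (log2 change -0.52 ± 0.15, adjusted p = 0.0328), each with an exact permutation p of 0.00794. The *Lipa* call was lost in 4 of the 9 fits that left out a sample, and those of *Lipa* and *Mylip* were lost when all 27 samples shared an estimate of the spread. *Npc1* was the member with the smallest adjusted p in skeletal muscle. *Abcg1*, at 1.72 to 7.42 and 0.913 to 2.24, was estimated lower but did not pass (log2 change -0.81 ± 0.30, adjusted p = 0.0729). Macrophage markers also fell (5 of 10, sum 172 to 292 and 98.9 to 190.1), as did 4 of 5 fibroblast markers. The sum of the 6 genes of the fasting list was 9912 to 11134 at 5 months and 5625 to 9556 at 20 months, and *Pck1* and *Pdk4* fell. Of the 9 clock-controlled genes, 4 rose (*Per3*, *Hlf*, *Nr1d2* and *Tef*) and *Per1* fell. The part of these cells, of feeding and of the clock in the transport changes was not tested.

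**Figure D5:**
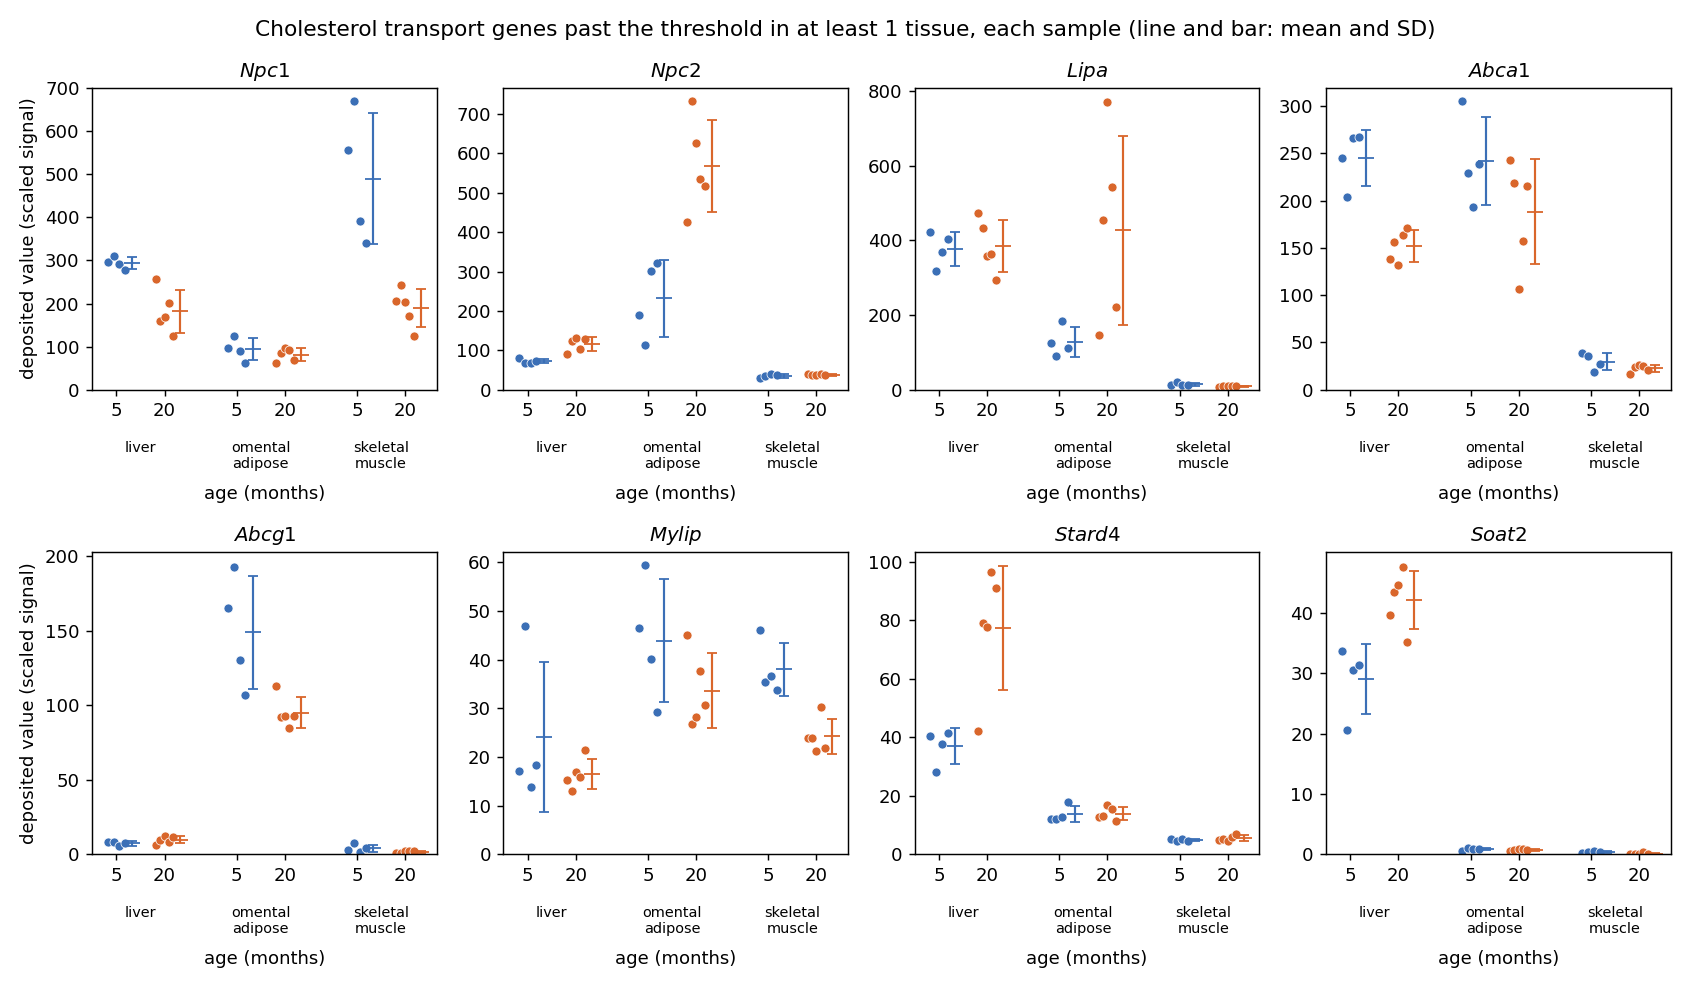
Deposited values (scaled signal) in each sample of the 8 transport genes past the threshold in at least 1 tissue, by tissue and age (blue: 5 months, orange: 20 months), with mean and SD beside the points. Npc1 is lower at 20 months in liver and skeletal muscle, Npc2 is higher in liver and adipose tissue, and Soat2 is at or below 1.03 outside the liver.

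The age change was then compared between tissues in a single fit over all 27 samples. For liver against skeletal muscle, 12 of 24 synthesis genes and 3 of 12 transport genes differed, where 17.5% of 15572 genes did (9.35% with the more positive and 8.19% with the more negative change in liver). *Insig1* (difference of log2 changes 1.58, adjusted p = 0.000173), *Idi1* (1.88, 0.000543), *Sqle* (2.07, 0.00203), *Msmo1* (1.81, 0.00639) and *Nsdhl* (1.21, 0.00335) had the more positive change in liver, and the change of *Insig2* (-1.66, 0.000711) and *Hsd17b7* (-0.68, 0.0391) was more negative there. The 3 transport genes were *Abcg1*, *Stard4* and *Soat2*, of which *Soat2* was below the filter on low values in skeletal muscle, so that its value rests on liver and is no test between the tissues. *Npc1* fell in both tissues, and its change did not differ past the threshold (difference 0.61 ± 0.31, adjusted p = 0.175).

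For liver against adipose tissue, 7 synthesis and 4 transport genes differed (15.6% of all genes, 8.59% more positive and 6.97% more negative in liver). *Idi1* (1.22, adjusted p = 0.0137), *Fdft1* (1.04, 0.0374), *Sqle* (1.47, 0.0208), *Cyp51* (1.14, 0.0151) and *Nsdhl* (1.42, 0.0011) had the more positive change in liver, and *Dhcr7* (-1.18, 0.0129) in adipose tissue. *Hmgcs1*, called in both tissues, had nearly the same estimate in each (difference 0.035 ± 0.27, adjusted p = 0.949). *Pmvk* (1.35, 0.00731) fell in adipose tissue and was estimated higher in liver. Among transport genes *Lipa* (-1.53, 0.019), *Stard4* (0.98, 0.0112) and *Nr1h3* differed. The fourth, *Soat2*, was below the filter in adipose tissue and its value is no test between the tissues. With the mouse as a block, *Insig2* (adjusted p 0.0551 without and 0.0463 with the block), *Msmo1* (0.0549 and 0.0446) and *Abcg1* (0.0625 and 0.0473) passed too, and *Fdps* passed for liver against skeletal muscle (0.0647 and 0.0498).

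For adipose tissue against skeletal muscle, 3 synthesis and 3 transport genes differed (14.7% of all genes, 8.34% more positive and 6.34% more negative in adipose tissue). These were *Insig1* (0.91, adjusted p = 0.0139), *Hmgcs1* (0.91, 0.0276), *Pmvk* (-1.34, 0.00853), *Npc1* (1.17, 0.0141), *Npc2* (1.24, 0.00617) and *Lipa* (2.06, 0.00349). *Lipa* thus rose in adipose tissue and fell in skeletal muscle, and the difference between those changes passed its own test.

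Most synthesis genes were read highest in liver on the deposited scale, and the gaps between tissues depend on the factor for each sample. Under the other settings tried, 16 to 21 synthesis genes differed in either direction between liver and adipose tissue at 5 months. At 20 months the range was 20 to 24. At 5 months, 17 of 24 were higher and 3 (*Lbr*, *Pmvk* and *Ggps1*) lower in liver than in adipose tissue, and at 20 months 22 were higher and 2 (*Lbr* and *Ggps1*) lower, where 76.4% and 74.5% of all 15572 genes differed (36.5% and 35.7% higher, 39.9% and 38.8% lower). Against skeletal muscle, 19 and 21 were higher in liver at 5 and 20 months and 3 and 2 lower (72.9% and 77.2% of all genes differed, 36% and 39.2% higher and 36.8% and 38.1% lower). In adipose tissue against skeletal muscle, 13 and 15 were higher and 3 and 4 lower (72.8% and 76% of all genes differed, 41.9% and 42.1% higher and 30.9% and 33.9% lower). *Pmvk* turned from lower to higher in liver against adipose tissue between the ages (-0.58, adjusted p = 0.0342 and 0.77, adjusted p = 0.00281). Wide gaps at 5 months were those of *Tm7sf2*, at 132 ± 15.9 (SD, n = 4) in liver, 2.64 ± 0.874 (SD, n = 4) in adipose tissue and 3.499 ± 0.505 (SD, n = 4) in skeletal muscle, of *Dhcr7*, at 54.5 ± 7.09 (SD, n = 4), 3.95 ± 1.504 (SD, n = 4) and 3.41 ± 0.395 (SD, n = 4), and of *Insig2*. *Insig2* was at 1308 ± 187 (SD, n = 4) in liver at 5 months, 65.5 ± 11.96 (SD, n = 4) in adipose tissue and 58.5 ± 8.15 (SD, n = 4) in skeletal muscle, and the last 2 did not differ past the threshold (adjusted p = 0.553).

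Some synthesis genes had other orders. *Fdft1* was higher in skeletal muscle (101 ± 12.9 (SD, n = 4)) than in liver (37.97 ± 11.8 (SD, n = 4); difference -1.45 ± 0.25, adjusted p = 1.16e-05) or adipose tissue (17.1 ± 5.59 (SD, n = 4); difference -2.54 ± 0.25, adjusted p = 1.69e-09) at 5 months, and at 20 months liver and skeletal muscle did not differ past the threshold (adjusted p = 0.661). The annotated span of *Fdft1* overlaps *Ctsb*, so its level may include reads of that gene. *Lbr*, which is also a nuclear envelope protein, was at 10.4 ± 1.49 (SD, n = 4) in liver, 23.5 ± 3.32 (SD, n = 4) in adipose tissue and 32.3 ± 2.39 (SD, n = 4) in skeletal muscle at 5 months, and each pair of tissues differed. *Mvk* and *Mvd* did not pass the threshold between liver and either tissue at 5 months and were higher in liver than in both at 20 months. Per kilobase of the longest annotated transcript, the highest synthesis levels in liver at 5 months were those of *Insig2* (485), *Ebp* (109.6) and *Hmgcs1* (53.9), and at 20 months those of *Insig2* (201), *Hmgcs1* (112) and *Ebp* (101).

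Transport genes divided by tissue. *Abcg5*, *Abcg8* and *Soat2* were read mainly in liver. *Abcg5* was at 48.3 to 66.7 in liver at 5 months, and in skeletal muscle it was at 0 in 6 of 9 samples and highest (0.470) in mouse X5S5238, the muscle sample with the highest hepatocyte marker sum (87.5). A count of 0 allows up to 3 reads a sample. In adipose tissue *Abcg5* was at 0.0299 to 0.628 and *Soat2* at 0.531 to 1.03. *Abcg1* and *Soat1* were read highest in adipose tissue. At 5 months *Abcg1* was at 149 ± 37.96 (SD, n = 4) in adipose tissue, 7.49 ± 1.53 (SD, n = 4) in liver (difference -4.13 ± 0.26, adjusted p = 1.58e-13) and 4.03 ± 2.45 (SD, n = 4) in skeletal muscle (difference 4.99 ± 0.26, adjusted p = 3.97e-15). *Npc2* was also highest in adipose tissue at both ages (difference -1.56 ± 0.21, adjusted p = 3.80e-07 for liver against adipose tissue at 5 months). *Npc1* was highest in skeletal muscle at 5 months (difference -0.68 ± 0.23, adjusted p = 0.0103 for liver against skeletal muscle), but at 20 months these 2 tissues did not differ past the threshold (adjusted p = 0.776). *Abca1* did not pass the threshold between liver and adipose tissue at either age (adjusted p = 0.895 and 0.24) and was higher in both than in skeletal muscle. *Lipa* was higher in liver than in adipose tissue at 5 months (difference 1.60 ± 0.32, adjusted p = 8.80e-05) and not past the threshold at 20 months (adjusted p = 0.834).

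Other genes of cholesterol handling, 53 in the table, were counted beside the members. In liver 4 of 50 tested rose and 5 fell, beside 19.8% of all genes in either direction. In adipose tissue 6 of 52 rose and 3 fell, beside 19.1%, and in skeletal muscle 4 of 47 rose and 4 fell, beside 19.3%. In liver the smallest adjusted p were those of *Srebf1*, which encodes the SREBP of fatty acid synthesis (log2 change 1.26 ± 0.19, adjusted p = 0.00737), *Cd36*, a scavenger receptor (log2 change 1.29 ± 0.27, adjusted p = 0.0129), and *Ncor1*, a nuclear receptor corepressor (log2 change -0.53 ± 0.12, adjusted p = 0.0154). In adipose tissue they were those of *Pltp*, the phospholipid transfer protein (log2 change 1.36 ± 0.25, adjusted p = 0.0148), *Rxra*, the partner of liver X receptors (log2 change -0.46 ± 0.10, adjusted p = 0.0237), and *Hsd3b7*, of bile acid synthesis (log2 change 0.69 ± 0.16, adjusted p = 0.0238). In skeletal muscle they were those of *Cyp27a1*, which makes an oxysterol (log2 change -0.91 ± 0.11, adjusted p = 0.00119), *Por*, the reductase that serves *Cyp51* and other cytochromes (log2 change -0.70 ± 0.12, adjusted p = 0.00472), and *Rnf139*, an SREBP-binding ubiquitin ligase (log2 change 0.61 ± 0.12, adjusted p = 0.00769).

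In all, 24 of the 36 genes passed in at least 1 tissue, as did 39.8% of all genes tested in any, and 12 passed in none (*Lss*, *Hsd17b7*, *Ebp*, *Tm7sf2*, *Lbr*, *Ggps1*, *Srebf2*, *Scap*, *Abcg5*, *Abcg8*, *Nr1h3* and *Soat1*). *Hmgcs1*, *Idi1*, *Fdps*, *Mvk*, *Insig1* and *Npc2* rose in both liver and adipose tissue, 6 of the 33 members tested in both, where 2.94% of all genes did. *Npc1* fell in both liver and skeletal muscle, 1 of 33, where 1.3% of all genes did. The 3 tissues share the young mice, so these are not independent. Of the genes called, *Fdps*, *Fdft1*, *Mvd*, *Acat2*, *Insig1* and *Npc1* overlap another annotated gene, and the counting could assign shared reads to either.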

How the data were processed

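Liver, omental adipose tissue and skeletal muscle of *Mlx*KO mice were profiled by RNA-seq, 9 samples a tissue. The authors made the deposited values with CLC Genomics Workbench 23.0. The submitters' processing notes list the builds mm10 and GRCm38.p6, and which of them served these values is not given in the sources used here. The deposited values are a scaled signal per gene: reads relative to the library total (the file header names them CPM), divided by a factor for each sample. Every value gave a whole number of reads within a tolerance of 0.01, so the depth of each sample was recovered. The strand setting of the counting is not given in the sources used here.

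Genes read at a value of 1 or more in 4 or more samples of a tissue were tested with limma 3.58.1 (R 4.3.3) on log2(value + 1) with a variance trend and Benjamini-Hochberg adjustment, threshold 0.05, between the 4 mice of 5 months and the 5 of 20 months. This test was fitted to the signal, where the design had assumed CPM. Tissues and the difference in age change between tissues were tested in a fit of 6 group means over 27 samples. Recovered reads were also tested with edgeR 4.0.16 and DESeq2 1.42.0, and exact two-sided permutation tests were run for single genes. Other normalizations, filters, pseudocounts, sample weights and fits without each sample were tried. The scripts were tested on simulated data.

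The mouse number in the sample names pairs tissues at 5 months. The deviations of 12 pairs of tissues of the same mouse correlated at -0.0169 to 0.294 (mean 0.136), and the consensus correlation used for the block was 0.101. No pair of samples was identical. Nothing in the sources used here says how each library was drawn from its mouse beyond these numbers, so p-values measure the spread between these samples. Counting error at this depth is described by the limit of 3 reads. It covers counting error only.

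The members and gene lists were chosen with earlier results of these data known, and 1 gene of the fasting list is not reported here and was left out of its sum. Genes named with full values are the members that passed the threshold in a tissue, and of the other cholesterol genes the 3 with the smallest adjusted p in each tissue.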

Additional observations from a re-analysis of the deposited data

Results flagged for a closer look

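Of 64 groups examined (both ages of each called member in each tissue), 4 held a sample whose gap to its nearest neighbour was large against the range of the group. Chance flags about 1 in 20 groups. *Sqle* in liver at 20 months was lowest in mouse 16, at 22.69, with the other 4 mice at 58.31 to 72.17. *Acat2* in liver at 5 months was highest in mouse X5L4299, at 44.42, with the others at 34.41 to 35.51. *Dhcr7* in adipose tissue at 5 months was highest in mouse X5F5238, at 6.205, with the others at 3.14 to 3.318. *Insig1* in adipose tissue at 20 months was lowest in mouse 36, at 49.43, with the others at 67.08 to 72.75.

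The age change of 20 members differed between tissues in 30 tests of the difference itself (limma, 27 samples, adjusted p under 0.05), given here as differences of log2 changes. Between liver and adipose tissue the change in liver was the more positive by 0.5195 for *Nr1h3*, 1.347 for *Pmvk*, 1.14 for *Cyp51*, 1.22 for *Idi1*, 1.039 for *Fdft1*, 1.474 for *Sqle*, 0.98 for *Stard4* and 1.415 for *Nsdhl*, and the difference was -1.178 for *Dhcr7* and -1.528 for *Lipa*.

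Between liver and skeletal muscle the change in liver was the more positive by 1.102 for *Cyp51*, 1.576 for *Insig1*, 1.224 for *Mvk*, 1.809 for *Msmo1*, 1.404 for *Mvd*, 1.881 for *Idi1*, 0.9453 for *Hmgcs1*, 1.558 for *Fdft1*, 2.072 for *Sqle*, 1.207 for *Nsdhl*, 1.138 for *Abcg1* and 0.8561 for *Stard4*. It was -1.657 for *Insig2* and -0.6805 for *Hsd17b7*. Between adipose tissue and skeletal muscle the difference was 0.9104 for *Insig1*, 0.9105 for *Hmgcs1*, 1.244 for *Npc2*, 1.168 for *Npc1* and 2.058 for *Lipa*, and -1.345 for *Pmvk*.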

How the results depend on the processing

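Of 704 values of called members' age changes under the alternatives, 610 kept their direction and their call, 94 kept the direction without the call and 0 turned. Of 1248 values of differences between tissues, 1186 kept both, 62 lost the call and 0 turned. The cause of the changes below was not tested.

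In liver, taking out a trend with length and GC of transcripts left 3 transport calls, and sample weights gave 4454 genes. In adipose tissue, no filter gave 3 synthesis calls, 1 transport call and 1525 genes, sample weights 19, 7 and 8456, DESeq2 12 synthesis calls and 4348 genes, and a fit of all 27 samples 5270 genes. In skeletal muscle, synthesis calls numbered 1 with a mean value of at least 5, with sample weights and with edgeR, and 2 with quantile normalization, without the 20 most abundant genes in the scaling, with the length and GC trend removed and with DESeq2, and no filter gave 1507 genes. With sample weights, 13 synthesis genes differed between liver and adipose tissue, 5 transport genes between liver and skeletal muscle, and 12 synthesis and 5 transport genes between adipose tissue and skeletal muscle. For differences between tissues under other settings, with samples left out or with the block, the share of all genes is not given here. Those counts are therefore no result about the members.

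Leaving out each sample gave 10 (without mouse X5L5001) to 17 (without mouse 16) synthesis, 3 to 6 transport and 959 (without mouse 18) to 3557 genes in liver. In adipose tissue the ranges were 2 (without mouse X5F4299) to 12 (without mouse 36), 0 to 4 and 397 to 3748, and in skeletal muscle 0 to 3 (without mouse X5S5238), 2 to 5 and 1158 to 3796. Differences in age change ranged over 6 to 11 synthesis and 3 to 6 transport genes for liver against adipose tissue, 10 to 13 and 2 to 3 for liver against skeletal muscle, and 2 to 6 and 3 to 4 for adipose tissue against skeletal muscle. The transport counts of liver against another tissue may include *Soat2*, which is no test there.

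No paired analysis was possible for the age comparison within a tissue because the ages share no mouse. For comparisons between tissues, the mouse as a replicate block gave 9 synthesis and 5 transport genes for liver against adipose tissue, 13 and 3 for liver against skeletal muscle and 3 and 3 for adipose tissue against skeletal muscle. Beyond the calls named above, the block added *Hsd17b7* between adipose tissue and skeletal muscle at 5 months.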
